A study of Mus musculus with 6 samples.

Results

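The distal end of mouse chromosome 2 holds a cluster of zinc finger genes, whose RNA was followed here in pancreatic islets. Members were the rows of the count table that lay entirely between 175 and 178.1 Mb of chromosome 2 (GRCm38) and had 10 or more counts summed over the 6 libraries. Of the 55401 rows in the table, 86 lay in this window. Of these, 24 were members, 13 had 1 to 9 counts and 49 had 0. Among the members, 21 are annotated as protein-coding and 3 as pseudogenes. The window was selected on the KO and control levels of its genes in these same libraries, so the fold changes of its genes are given as descriptions and not as independent evidence.

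Genes of this kind encode DNA-binding proteins built from tandem C2H2 fingers, in which cysteines and histidines hold a zinc ion and each finger contacts a few bases. Many of these proteins carry a KRAB domain, which recruits the co-repressor TRIM28 and, through it, the histone methyltransferase SETDB1. KRAB zinc finger proteins are known in mouse for silencing transposable elements. Their genes lie in clusters that grew by repeated duplication, so that neighbours are often close copies of each other.

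The islets came from male C57BL/6 mice aged about 20 weeks. KO mice (3 libraries) were Pdgfra fl/fl with Pdx1-Cre, and control mice (3 libraries) were Pdgfra fl/fl without it, so both groups carried the floxed gene of platelet-derived growth factor receptor alpha. Pdx1 is a transcription factor of the whole pancreatic lineage, so its promoter is not restricted to beta cells. No library with Cre and unfloxed Pdgfra was analysed here, and an effect of Cre cannot be told apart from one of Pdgfra deletion. Whether each library came from its own animal is not stated, and the spread that p-values rest on may therefore be technical. The columns of the 3 KO libraries, and of 0 controls, also share an unexplained suffix, so a technical difference between the groups cannot be told apart from the genotype.

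Libraries held 18247741 to 25039394 counts in KO and 15026094 to 25299689 in controls. Pdgfra had 93, 25 and 125 counts in KO 1, 2 and 3 and 42, 88 and 116 in controls 1, 2 and 3 (log2 fold change -0.26, SE 0.34, edgeR adjusted p = 0.869). Its counts sum all exons and so do not check the genotype. The labels name beta cells, and all 10 beta-cell markers were tested, but other cells were present too. The 16 acinar markers, 0 of them at 0 counts, summed to between 157925 and 305742 CPM (counts scaled to library size, with TMM factors) in KO and between 182232 and 471538 CPM in controls. The 9 fibroblast markers, 0 of them at 0 counts, summed to between 46.7 and 238 CPM in KO and between 152 and 300 CPM in controls. A ribosomal RNA locus took 5.36% to 18.5% of counts in KO and 3.32% to 4.51% in controls, with 95% Wilson intervals of at most 0.0247 percentage points to either side that cover counting error only. The markers of germ cells and embryonic stem cells were near 0 in all 6 libraries, with Nanog, Pou5f1 and Zfp42 at 0 counts. In bulk RNA, fewer cells of a type and less RNA per cell cannot be told apart.

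The promoters show how alike the members are. RefSeq promoter windows (GRCm38.p6, 250 bases before the start of a gene and 50 after it) were matched by symbol for 10 of the 14 members that had enough counts to be tested. The 4 without a match were Gm14399, Gm14412, Gm14418 and Gm14327. Over the 45 pairs of the 10 promoters, 93.5% to 99.3% of the aligned bases were identical, with a median of 95.9%. All 10 held the same run of 40 bases, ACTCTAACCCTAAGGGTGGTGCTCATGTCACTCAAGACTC. Searched on both strands, this run stood in 28 of the 27025 promoters of the table (0.104%), and all 28 lay in the window. It is in capitals in the 250 bases upstream of Gm14326, shown because Gm14326 was the member that passed the test (chr2:177957289-177957538, minus strand).
Gm14326: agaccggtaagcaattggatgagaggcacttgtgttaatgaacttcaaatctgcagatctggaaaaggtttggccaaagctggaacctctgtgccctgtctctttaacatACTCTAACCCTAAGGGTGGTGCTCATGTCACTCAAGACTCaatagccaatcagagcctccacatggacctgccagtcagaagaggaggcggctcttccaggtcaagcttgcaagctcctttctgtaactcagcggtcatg

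A stretch of 110 bases around this run is shown for 4 members at the distal end, so that those with a lower level in KO can be set against their neighbour Zfp931, which stood at like levels in the groups. Capitals mark the bases that differ from Gm14326. The stretches lie at chr2:177498087-177498196 (plus strand), chr2:177840358-177840467 (minus strand), chr2:178023151-178023260 (plus strand) and chr2:178078479-178078588 (minus strand).
Gm14403: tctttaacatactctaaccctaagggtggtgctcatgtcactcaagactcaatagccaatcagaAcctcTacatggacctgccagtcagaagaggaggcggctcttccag
Gm14325: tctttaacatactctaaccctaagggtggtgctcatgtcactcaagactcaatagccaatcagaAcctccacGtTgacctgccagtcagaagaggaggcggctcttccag
Zfp971: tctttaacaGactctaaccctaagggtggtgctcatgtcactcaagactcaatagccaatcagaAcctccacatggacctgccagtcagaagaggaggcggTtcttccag
Zfp931: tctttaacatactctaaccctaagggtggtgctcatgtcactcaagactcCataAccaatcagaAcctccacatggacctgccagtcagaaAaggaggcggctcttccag
Within these 110 bases Gm14403 differed from Gm14326 at 2 positions, Gm14325 at 3, Zfp971 at 3 and Zfp931 at 4. Over the 9 promoters compared with Gm14326 the number ran from 1 to 4, and Gm14295, which was lower in every KO library than in any control, also differed at 4, so the number of differences does not set Zfp931 apart. Over the aligned bases of the promoter window, 211 to 296 per pair, Zfp931 was 94.4% to 97.8% identical to the other 9. Without Zfp931, the shared run was longer, at 54 bases. These matches are descriptions of the letters and say nothing of what binds there.

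The transcripts are alike as well, which bears on where reads could be placed. The transcripts of each gene in GENCODE vM21 were broken into words of 100 bases, and the words that also occur in another gene, on either strand, were counted. Among the 14 tested members, from 2.77% of the words (Gm14412) to 75.2% (Gm14410) were shared, with a median of 48.1%, and none of them occurred in a gene outside the window. With words of 50 bases, 23.3% to 88.9% were shared. Among the 49 rows with 0 counts the median was 89.7% of the 100-base words, and 24 rows shared over 90%. How reads that map to several places were counted is not given in the sources used here. A count of 0 therefore cannot be told apart from reads that were not placed, and the division of reads among close copies is uncertain.

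The finger pattern was read from the translated transcripts, taking the best of 3 frames. It was found in 21 of the 24 members. Zfp931 held 7 fingers, Gm14403 held 9, Zfp971 held 12, Gm14325 held 14, Gm14326 held 15 and Gm14295 held 25. Gm14327, Zfp972 and the pseudogene Gm14439 held 0.

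From Gm14305 (start 176708328) to Zfp971 (end 178034022), a stretch of 1326 kb, 12 genes of the cluster were tested, and each had a lower mean level in KO than in control islets. Their sum was 24.0, 27.9 and 28.7 CPM in KO 1, 2 and 3, against 52.5, 51.3 and 52.3 CPM in controls 1, 2 and 3. The groups did not overlap, and the gap between them was many times the spread within each, at 26.9 ± 2.5 CPM in KO and 52.0 ± 0.68 CPM in controls (SD, n = 3 each). KO stood at 51.6% of controls. For single genes of the stretch, KO stood at 41.8% to 80.0% of controls, with a median of 54.6%. The ends of the stretch were set after the values were seen, so no test was made on it.

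Over all 24 members the sum was 34.9, 35.6 and 36.5 CPM in KO 1, 2 and 3, against 62.1, 61.2 and 62.7 CPM in controls 1, 2 and 3. The groups stood apart here too, at 35.7 ± 0.82 CPM in KO and 62.0 ± 0.75 CPM in controls (SD, n = 3 each), or 57.5% of controls. With all 86 rows of the window KO stood at 57.6% of controls. A sum over the window does not depend on how reads were divided among copies within it. The ribosomal RNA share of KO 1, 2 and 3 was 5.36%, 12.6% and 18.5%. With ribosomal RNA and acinar counts out of the denominator, KO stood at 57.2% of controls over the 24 members. Any other part of ribosomal RNA in these sums was not tested.

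**Figure D1:**
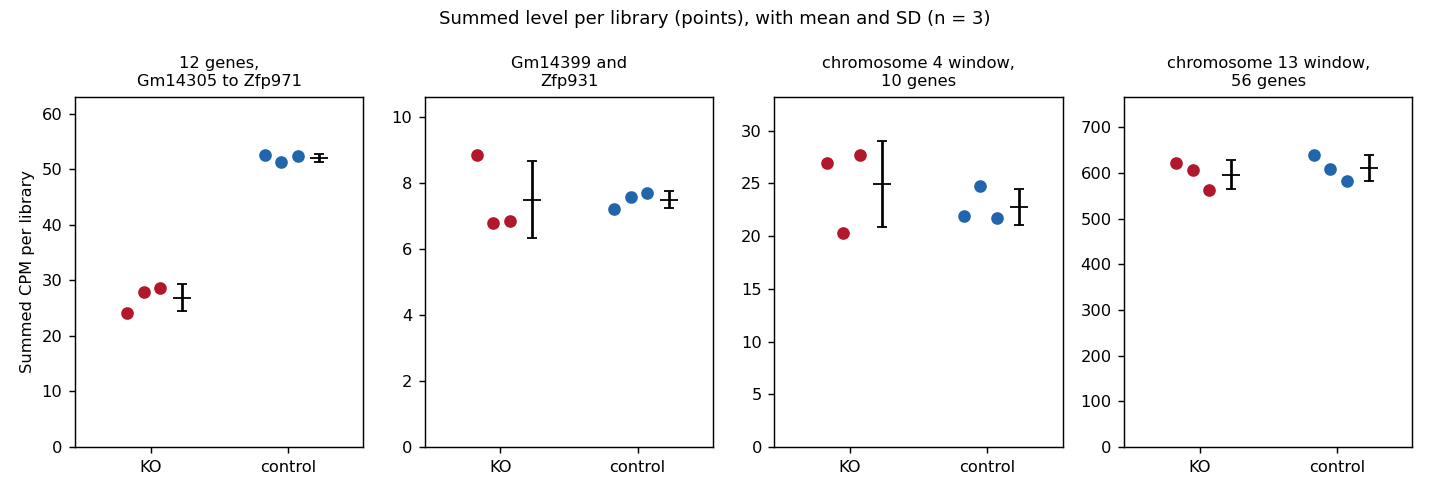
Summed level per library in CPM for the 12 tested genes from Gm14305 to Zfp971, for Gm14399 with Zfp931, and for the tested genes of 2 other zinc finger windows; points are libraries, KO is left of control, and black marks are the mean and SD (n = 3). The 12 genes lie at 24.0 to 28.7 CPM in KO and 51.3 to 52.5 CPM in controls, and the groups overlap in the other 3 panels.

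In the edgeR quasi-likelihood test over all 14212 tested genes, with Benjamini-Hochberg adjustment, 1 of the 14 tested members fell in KO and 0 rose. DESeq2 also called 0 members higher, and 0 were higher at an unadjusted p under 0.05. Of all tested genes, 0.0633% were called lower. In 7 of the 14 members every KO library lay below every control, beside 5.94% of all tested genes. In 0 of the 14 did every KO library lie above every control, beside 7.94% of all tested genes. Because the window was proposed from this contrast, nothing is read from these shares. The median log2 fold change was -0.82 over the 14 members, of which 13 were negative, and -0.01 over all tested genes, of which 52.2% were negative.

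Gm14326 (ENSMUSG00000078862.10, 177935993 to 177957297, minus strand) is the member that passed. It had 99, 61 and 96 counts in KO 1, 2 and 3 and 106, 165 and 280 in controls 1, 2 and 3. Scaled to library size this was 3.97, 3.81 and 3.65 CPM in KO and 8.50, 9.61 and 9.22 CPM in controls. The groups did not overlap. Gm14326 fell to 3.81 ± 0.16 CPM in KO, against 9.11 ± 0.56 CPM in controls (SD, n = 3 each), with a log2 fold change at -1.26 (SE 0.14, adjusted p = 0.0171 in edgeR). Its size held when libraries were left out, at -1.30 to -1.22, but the call was kept only without control 1 (edgeR adjusted p = 0.0418) and lost without any other library (0.0544 to 0.149). The call was also lost with the ribosomal RNA locus as a covariate (-1.13, SE 0.24, edgeR adjusted p = 1.00).

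Gm14325 and Gm14403 followed in the order of adjusted p, and both missed the threshold in edgeR. Gm14325 (177831791 to 177840336, minus strand) stood at 3.69, 4.18 and 4.76 CPM in KO and at 7.22, 10.1 and 9.19 CPM in controls 1, 2 and 3 (log2 fold change -1.08, SE 0.17, edgeR adjusted p = 0.0985). It shares 47.1% of its 100-base words with Gm14326, so these 2 genes may hold some of the same reads. Gm14403 (177498215 to 177509763, plus strand) stood at 3.40, 3.49 and 4.07 CPM in KO and at 6.74, 6.47 and 7.48 CPM in controls (-0.92, SE 0.15, edgeR adjusted p = 0.102). It shares 4.95% of its words with any other gene, fewer than every other member without overlap of the groups. Both genes passed, together with Gm14326, in DESeq2, where 0.217% of all genes were called lower, and with an acinar score as a covariate, where 0.204% were. Without a filter on low counts 7 members passed, where 0.479% of all genes were called lower.

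**Figure D2:**
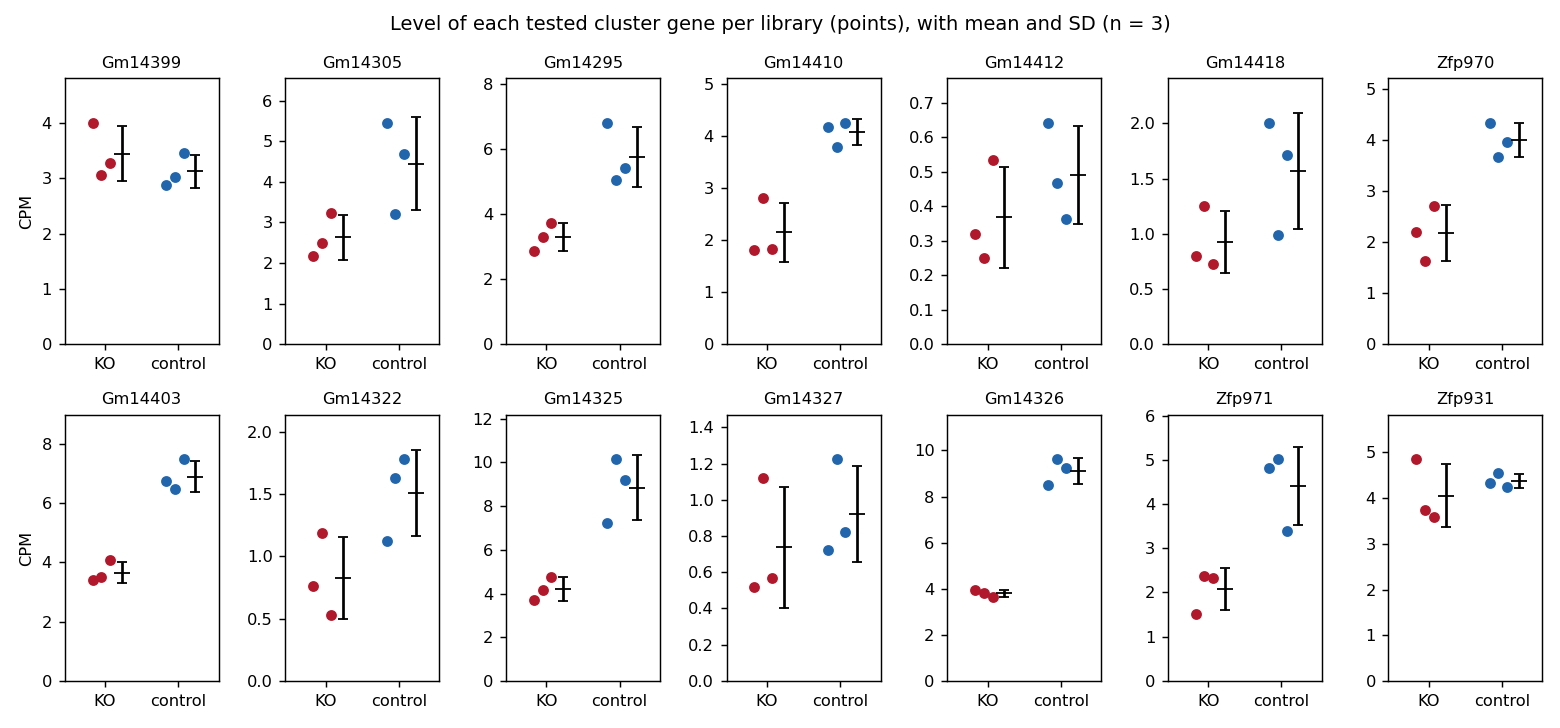
Level in CPM per library of the 14 tested genes of the cluster, in order along the chromosome, with KO left of control; points are libraries, black marks are the mean and SD (n = 3), and each panel has its own axis from 0. In 7 panels all KO points lie below all control points, as for Gm14326 at 3.65 to 3.97 CPM in KO and 8.50 to 9.61 CPM in controls, while those of Gm14399 and Zfp931 overlap.

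In 4 further members every KO library lay below every control, and none of these passed the test (edgeR adjusted p from 0.355 to 0.485). Gm14295 (176798612 to 176811223, plus strand), with the most fingers, stood at 2.88, 3.31 and 3.73 CPM in KO and at 6.82, 5.07 and 5.44 CPM in controls (log2 fold change -0.79, SE 0.18). Gm14410 (177183453 to 177206421, minus strand) stood at 1.80, 2.81 and 1.83 CPM in KO and at 4.17, 3.79 and 4.25 CPM in controls (-0.95, SE 0.22). These 2 share 52.8% and 75.2% of their words with other genes. Zfp970 and Zfp971 share fewer, 17.4% and 22.1%. Zfp970 (177464733 to 177478129, plus strand) stood at 2.20, 1.62 and 2.7 CPM in KO and at 4.33, 3.67 and 3.95 CPM in controls (-0.85, SE 0.22). Zfp971 (178023284 to 178034022, plus strand) stood at 1.52, 2.37 and 2.32 CPM in KO and at 4.81, 5.01 and 3.39 CPM in controls (-1.08, SE 0.25).

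In the other 5 genes from Gm14305 to Zfp971 the groups overlapped. Gm14305 (176708328 to 176721813, plus strand) stood at 2.16, 2.50 and 3.23 CPM in KO and at 5.46, 3.20 and 4.68 CPM in controls (log2 fold change -0.74, SE 0.25, edgeR adjusted p = 0.590), with KO 3 and control 2 at nearly the same level. It overlaps Zfp973, on the same strand, by 10758 bases, of which 251 are exonic in both, and Zfp973 had 0 counts. The others had low counts. Gm14418 had 20, 20 and 19 counts in KO and 25, 17 and 52 in controls (-0.79, SE 0.35). Gm14322, 72.8% of whose words occur in Gm14418, had 19, 19 and 14 counts in KO and 14, 28 and 54 in controls (-0.95, SE 0.35). Their reads cannot be fully told apart. Gm14412 had 8, 4 and 14 counts in KO and 8, 8 and 11 in controls (-0.28, SE 0.44). Gm14327 had 13, 18 and 15 counts in KO and 9, 21 and 25 in controls (-0.38, SE 0.39). Its span overlaps that of Zfp972, on the other strand, by 2445 bases, of which 0 are exonic in both. Standard errors of 0.35 to 0.44 leave the fold changes of these 4 genes poorly determined.

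The nearest tested genes on both sides stood at like levels in the groups. Zfp931 (178067695 to 178078476, minus strand) begins 33672 bases beyond the end of Zfp971. It stood at 4.85, 3.74 and 3.58 CPM in KO and at 4.33, 4.54 and 4.25 CPM in controls, with overlap (log2 fold change -0.10, SE 0.18, edgeR adjusted p = 0.906), and at 0.22 (SE 0.26) with the ribosomal RNA covariate. Gm14399 (175129493 to 175142012, minus strand), near the other end of the window, stood at 4.01, 3.06 and 3.27 CPM in KO and at 2.89, 3.03 and 3.46 CPM in controls (0.13, SE 0.19, edgeR adjusted p = 0.885). Of the words of Gm14399, 43.5% occur in another gene and 33.1% in Gm14326. Together Zfp931 and Gm14399 summed to 7.50 ± 1.2 CPM in KO and 7.50 ± 0.25 CPM in controls (SD, n = 3 each). The equal means join Gm14399 at 110% of controls with Zfp931 at 92.7%. These 2 genes fell outside the stretch because its ends were set after the values were seen, so their like levels follow from that choice. The difference of these 2 genes from the 12 genes between them was not tested. Over the 1566 kb between Gm14399 and Gm14305 no gene was tested, so where the lower levels begin on that side was not measured.

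**Figure D3:**
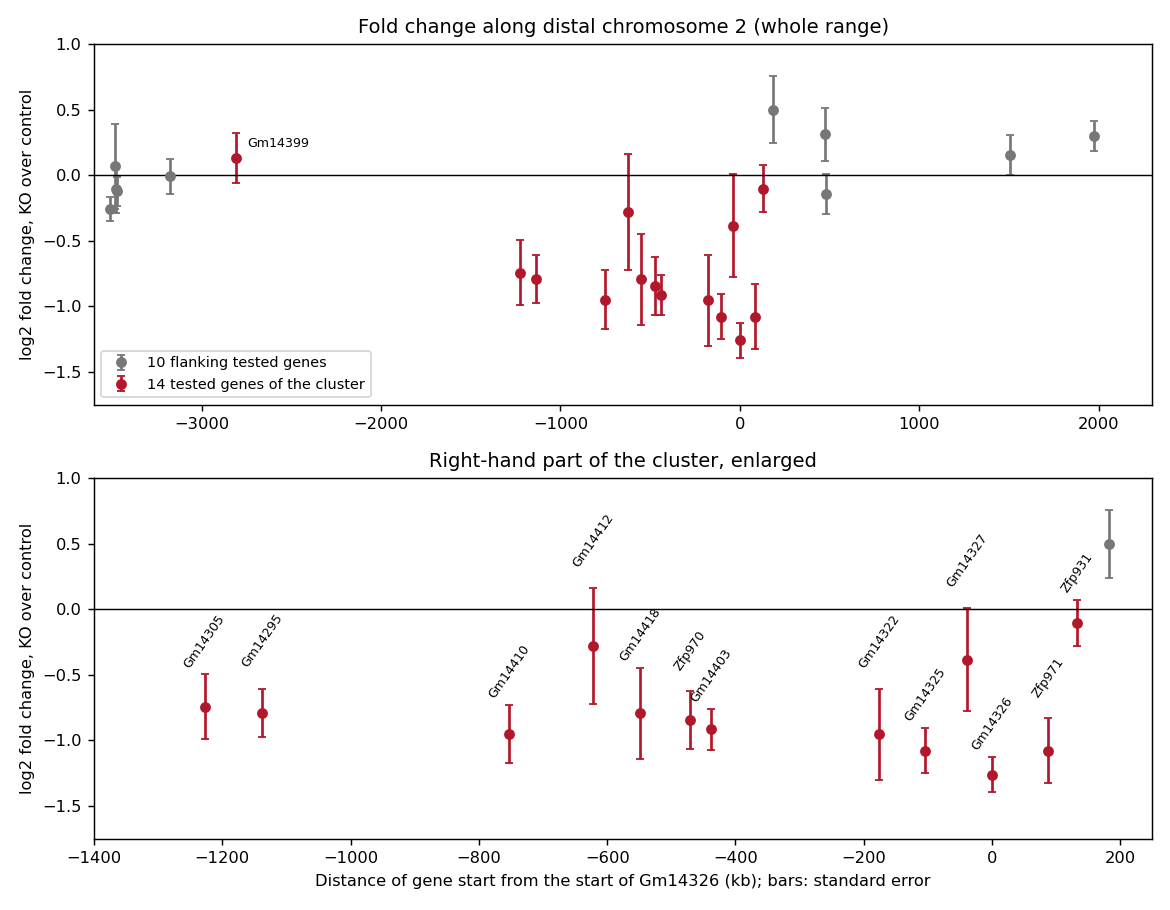
Log2 fold change, KO over control, of the 14 tested genes of the cluster and of the 5 tested genes next to the window on each side, against the distance of each gene's start from that of Gm14326 in kb; bars are standard errors, and the lower panel enlarges the distal part. The 12 genes from Gm14305 to Zfp971 lie at -1.26 to -0.28, with Gm14399 at 0.13 to their left and Zfp931 at -0.10 to their right.

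The 5 tested genes on each side of the window belong to other families. Towards the centromere they were Ctsz, a lysosomal protease, Tubb1, a tubulin, Atp5e, a subunit of ATP synthase, Prelid3b, and Edn3, an endothelin. Their log2 fold changes were -0.26, 0.07, -0.11, -0.12 and -0.01. Towards the telomere they were Phactr3, Ppp1r3d, Fam217b, Cdh4, a cadherin, and Taf4, a subunit of the transcription factor TFIID, at 0.50, 0.31, -0.14, 0.16 and 0.30. Of these 10 genes, 0 passed in edgeR (adjusted p from 0.600 to 0.990) and 0 in DESeq2. In edgeR 2 had an unadjusted p under 0.05, beside 1048 of all 14212 tested genes. Phactr3, the first gene past the cluster, stood at 3.16, 4.62 and 4.30 CPM in KO and at 3.13, 1.86 and 3.43 CPM in controls, with overlap. Ctsz had every KO library below every control, at 29.7, 26.4 and 26.6 CPM in KO and 34.7, 33.3 and 31.4 CPM in controls. Taf4 had every KO library above every control, at 9.01, 9.23 and 9.66 CPM in KO and 7.38, 7.46 and 7.81 CPM in controls. In the other 8 the groups overlapped, and of all tested genes 5.94% lay wholly below in KO and 7.94% wholly above.

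The 10 members with too few counts for the test summed to 1.96, 0.936 and 0.989 CPM in KO and to 2.33, 2.39 and 2.73 CPM in controls 1, 2 and 3. KO was lower in the sum, with no overlap, and had the lower mean in 8 of the 10 genes. In 2 of the 10, Gm14419 and Gm14387, every KO library lay below every control. Both reached 10 counts only in the controls. At such low counts a gene can meet the rule through the group where it is higher. The sum and these counts of genes are therefore partly set by the rule, and nothing is read from them. Gm4724 had 7, 2 and 2 counts in KO and 11, 4 and 22 in controls, and 96.1% of its words occur in other genes. Gm14419 had 2, 1 and 2 counts in KO and 3, 2 and 12 in controls. Gm14296, at the edge of the rule with 10 summed counts, had 0 counts in each KO library and 0, 4 and 6 in controls. It met the rule through the controls alone, so its lower level in KO was fixed by the rule. Gm14443 and Gm14401 had the higher mean in KO. Gm14443 had 11, 3 and 10 counts in KO and 3, 6 and 9 in controls, and Gm14401 had 7, 1 and 2 in KO and 0, 3 and 3 in controls.

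The remaining members had few counts. Zfp972 had 11, 5 and 4 counts in KO and 4, 1 and 16 in controls. Zfp967, all of whose words occur in other genes, had 4, 1 and 0 counts in KO and 2, 5 and 1 in controls. The pseudogenes were at the same low level. Gm14387 had 2, 2 and 1 counts in KO and 2, 6 and 9 in controls, Gm14439 had 5, 0 and 1 in KO and 3, 5 and 3 in controls, and Gm14411 had 0, 0 and 4 in KO and 1, 5 and 2 in controls. Just outside the rule, with 9 summed counts, Gm14421 had 3, 0 and 3 in KO and 1, 1 and 1 in controls.

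Per length of exon, Gm14325 and Gm14403 were the most abundant members in both groups, and the order below them differed between the groups. Gm14325 stood at 2.60 CPM per kb in KO and 5.48 in controls, and Gm14403 at 2.21 in KO and 4.16 in controls. In KO the next were Zfp931 at 1.76, Gm14399 at 1.35 and Gm14326 at 1.33 CPM per kb. In controls the next were Gm14326 at 3.18, Zfp971 at 2.05 and Zfp931 at 1.90 CPM per kb, with Gm14399 at 1.22. Gm14412 was the lowest in both, at 0.232 CPM per kb in KO and 0.310 in controls. Neighbours in these orders were not tested against each other. Reads that could not be placed would lower the level of members with many shared words, and by how much was not measured.

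Low fold changes were found among members with few shared words and among those with many. The 5 tested members with under 25% of their words shared ran from -1.08 (Zfp971) to -0.10 (Zfp931), with a median log2 fold change of -0.85. The other 9 ran from -1.26 (Gm14326) to 0.13 (Gm14399), with a median of -0.79. Over the 14 members, Pearson's r between the percentage of shared words and the log2 fold change was -0.31 and Spearman's rho was -0.30, of the opposite direction to the medians. These are descriptions, since the points share libraries, depth and, in part, reads, and the difference was not tested.

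**Figure D4:**
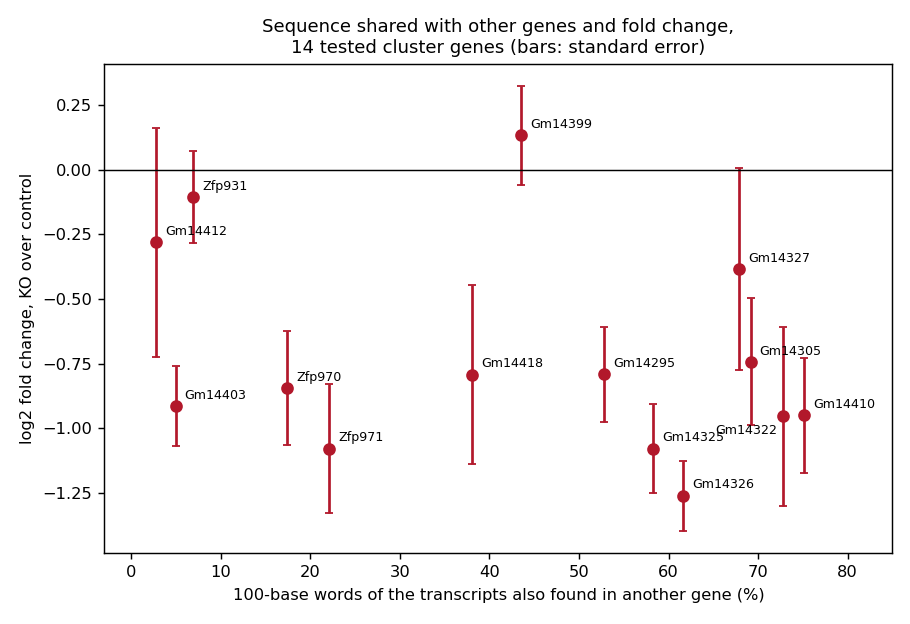
Log2 fold change, KO over control, of the 14 tested genes of the cluster against the percentage of 100-base words in their transcripts that occur in another gene; bars are standard errors. Gm14403 at 4.95% and Gm14326 at 61.6% shared words lie at -0.92 and -1.26, and Zfp931 at 6.91% and Gm14399 at 43.5% lie at -0.10 and 0.13.

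The same values were taken for 2 other windows with clusters of KRAB zinc finger genes. On chromosome 4 (145 to 147.9 Mb), 10 genes were tested, with a median log2 fold change of 0.21. Every KO library lay below every control in 1 gene (10%, beside 5.94% of all tested genes) and above in 3 (30%, beside 7.94%). The 10 genes summed to 25.0 ± 4.1 CPM in KO and 22.8 ± 1.7 CPM in controls (SD, n = 3 each). On chromosome 13 (62 to 68 Mb), 56 genes were tested, with a median of 0.02. Every KO library lay below every control in 3 genes (5.36%) and above in 2 (3.57%), beside the same shares of all tested genes. The 56 genes summed to 597 ± 31 CPM in KO and 610 ± 28 CPM in controls (SD, n = 3 each). In both sums the groups overlapped, with a difference below the SD of KO in each and, on chromosome 4, above that of the controls. In edgeR 0 genes of either window were called, and in DESeq2 0 were called. In edgeR 3 genes on chromosome 4 and 2 on chromosome 13 had an unadjusted p under 0.05, beside 1048 of all 14212 tested genes. The difference between these windows and the one on chromosome 2 was not tested.

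The co-repressors of KRAB zinc finger proteins did not pass the test. Trim28 stood at 52.7, 55.2 and 53.1 CPM in KO and at 58.4, 47.6 and 53.3 CPM in controls (log2 fold change 0.02, SE 0.10). Setdb1 stood at 14.7, 14.0 and 16.0 CPM in KO and at 14.2, 12.6 and 15.5 CPM in controls (0.08, SE 0.11). Both overlapped between the groups. Of 37 listed genes of KRAB co-repression and methylation of histone H3 lysine 9, 35 were tested. In edgeR 0 rose and 0 fell, and DESeq2 called 0. In edgeR 2 had an unadjusted p under 0.05, beside 1048 of all 14212 tested genes. Their median log2 fold change was 0.11, with 25 of 35 positive. Every KO library lay above every control in 5 of the 35 (Dnmt3a, Cbx5, Gatad2b, Dnmt1 and Atrx), beside 7.94% of all tested genes. Every KO library lay below in 1 (Sumo2), beside 5.94%. The smallest p belonged to Dnmt3a, a DNA methyltransferase, at 64.0, 71.0 and 94.3 CPM in KO and 54.5, 53.3 and 58.5 CPM in controls (0.46, SE 0.14, edgeR adjusted p = 0.542). Next were Cbx5, which encodes a heterochromatin protein (0.36, SE 0.14), Gatad2b, of the NuRD complex (0.26, SE 0.12), and Sumo2, a ubiquitin-like modifier (-0.20, SE 0.10).

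**Figure D5:**
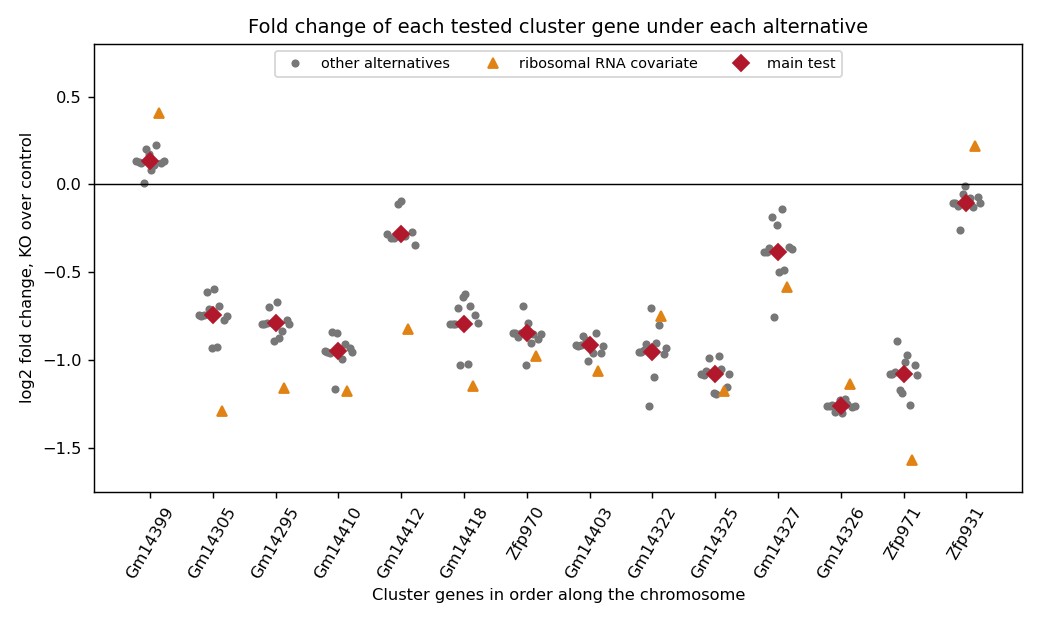
Log2 fold change, KO over control, of each tested gene of the cluster in order along the chromosome, in the main test (diamonds), with the ribosomal RNA locus as a covariate (triangles) and under the other alternatives (grey points). The 12 genes from Gm14305 to Zfp971 lie below 0 under each alternative, and Zfp931 lies at 0.22 with the ribosomal RNA covariate, against -0.10 in the main test.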

How the data were processed

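Raw read counts of every gene in 6 islet libraries were deposited by the authors as 1 table. It was made with STAR 2.7.9 and featureCounts 2.0.0, per the submitters' processing notes, from libraries of an mRNA kit, per the labels' protocols. Neither the annotation release nor the strand and multimapping settings are given in the sources used here. All genes were fitted together with edgeR 4.0.16 (R 4.3.3; glmQLFit, glmQLFTest) with TMM scaling, filterByExpr (minimum count 10, minimum total 15) and Benjamini-Hochberg adjustment over 14212 genes, two-sided, with a threshold of 0.05. The common biological coefficient of variation was 0.140. CPM are scaled by TMM factors, and the standard error is the fold change divided by the square root of F. The script was tested on simulated data. Alternatives were RLE scaling, no filter, a block for the replicate number, leaving out each library, the ribosomal RNA locus or an acinar score as a covariate, and DESeq2 1.42.0. Shared words and fingers came from GENCODE vM21 transcripts and promoters from RefSeq (GRCm38.p6). Every member is named, with the 5 nearest tested genes on each side and the 4 co-repressor genes with the smallest p; Trim28 and Setdb1 were named for their role. Members, lists and tests were chosen with earlier results of these data known.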

Additional observations from a re-analysis of the deposited data

How the results depend on the processing

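Counting error and 3 libraries per group limit these results: tested members had 53 to 827 counts in all, and members below the filter 10 to 48. The main test called 1 member, and 10 genes over the whole table. The count was 7 without a filter on low counts (of 24 members), where 300 genes of the whole table were called. It was 2 with the replicate number as a block (36 genes over the whole table), 3 with the acinar covariate (43 genes) and 3 with DESeq2 (48 genes). With the ribosomal RNA covariate it was 0, where 0 genes of the whole table were called. There 8 members and 214 genes of the whole table (1.51%) had an unadjusted p under 0.05 in edgeR. The count of called members ranged from 0 to 1 when libraries were left out, where 2 to 6 genes of the whole table were called. With RLE scaling it was 1, where 10 genes were called. In their deviations from the group means, same-numbered libraries of the groups correlated at 0.20, -0.19 and 0.16. Libraries of unlike number correlated at -0.27 to 0.18. With 3 libraries per group, these values cannot decide whether the numbers mark pairs. The number of members with every KO library below every control, 7 in the main comparison, was 12 for KO 1 alone against the controls, an alternative chosen after seeing the data in which 23.1% of all tested genes lay below the controls, and 7 to 10 with a library left out, where 9.37% to 13.7% of all tested genes did. KO stood at 57.5% of controls in the summed level, at 56.8% to 58.1% with a library left out, at 57.2% with ribosomal RNA and acinar counts out of the denominator and at 56.2% for KO 1 alone. The 12 genes from Gm14305 to Zfp971 were negative under each alternative in which they were tested, with a median of -1.14 with the ribosomal RNA covariate. Gm14326 lay at -1.30 to -1.13. The sign of Zfp931, not called, was positive with the ribosomal RNA covariate. The cause of these shifts was not tested.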

Other observations

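Zinc finger genes outside the 3 windows are given for comparison. Of 287 tested genes named Zfp with a number, every KO library lay above every control in 49 (17.1%, beside 7.94% of all tested genes) and below in 5 (1.74%, beside 5.94%). Of the 287, 95 had a negative log2 fold change (33.1%, beside 52.2%), and their median was 0.08. In edgeR 0 of them were called, with 28 higher and 2 lower at an unadjusted p under 0.05, and DESeq2 called 1 higher. Over all 14212 tested genes, 1048 had an unadjusted p under 0.05 in edgeR, in either direction. In runs of 10 neighbouring tested genes, a size chosen after the values were seen, the lowest median of 14009 runs was that from Gm14410 to Zfp971, at -0.93. The 9 lowest runs all held genes of the cluster. Runs were started at each gene in turn, so these overlap and are not separate results. The window was selected on the levels of these same genes, so its low rank restates that choice. The next run was the kallikrein region of chromosome 7 from Ctu1 to 1700028J19Rik, at -0.69, where the groups did not separate in any gene. Among the highest runs was a zinc finger region of chromosome 7 from Zfp444 to Zfp954, at 0.31. There every KO library lay above every control in 6 of the 10 genes, beside 7.94% of all tested genes. That run was picked for its high median, so nothing is read from its count. These are descriptions, and neither their difference nor the ribosomal RNA share that moved with the KO group was tested as a cause.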
